A study of Homo sapiens with 8 samples.

Results

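The epidermal growth factor receptor EGFR (ErbB1) and its relatives ERBB2 and ERBB3 are receptor tyrosine kinases that signal as dimers. Their ligands, among them AREG, EREG, HBEGF, TGFA and BTC, are made as membrane-bound precursors and are released by cell surface proteases, and ERRFI1 (MIG6) binds the activated kinase and inhibits it. EGFR signalling sustains the growth of cultured mammary epithelial cells, and ligand genes of this family are themselves induced by the receptor. The accessible chromatin around these 9 genes was followed here through a TGFβ1 time course by ATAC-seq. This assay inserts sequencing adapters with a transposase, which reaches open DNA more readily than DNA in nucleosomes.

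The cells were MCF10A, an immortalised line of human mammary epithelial cells, labelled WT. They received solvent, which the labels place at 0 h, or 5 ng/ml TGFβ1 for 6, 24 or 72 h, with 2 replicates per condition. All conditions, the solvent control included, shared a medium with 20 ng/ml EGF, itself a ligand of EGFR, and with horse serum, insulin, hydrocortisone and cholera toxin, so no condition lacked EGFR ligand. The study's own figure legend gives the solvent plate the longest treatment time and the same harvest after seeding as the TGFβ1 plates, which the label does not.

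The deposited lists hold 1 set of peaks per condition, called on both replicates together, and the difference between replicates could therefore not be measured. No value below has an SD or a p-value, and no difference between lists has a replicate check. Each peak carries an area under the curve (AUC) from the peak caller, and a peak had to reach an AUC of 200 to be listed. Peaks of the 4 lists that shared at least 1 bp were merged into 126658 regions, of which 160 overlapped the gene body of a member or the 50 kb on either side of it. Of these, 90 were distal and 70 lay within 3 kb of a transcription start site (TSS). The EREG and AREG genes are neighbours, and 9 regions lay in both of their windows.

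The AUC rises with depth, and the depth reached by each library is unknown. Each TGFβ1 list was therefore divided by its median AUC ratio to solvent at shared TSS-proximal regions, which was 1.36, 1.30 and 1.19 for the 6, 24 and 72 h lists. Folds and log2 ratios below are on this scaled AUC unless said otherwise, whereas an AUC given per list is the deposited value. Log2 ratios per base were scaled apart, by the median ratio of AUC per base at the same shared TSS-proximal regions. The scaled AUC per base of a window is instead its scaled sum divided by its covered length. These measures differ by a constant factor in each list, so a fall in the latter is not by itself a fall in the former. A region was called higher or lower when it differed from solvent by at least 1.5-fold, opened when it had a peak in the TGFβ1 list and none in solvent, and closed in the reverse case. The listing limit of 200 came to a scaled AUC of 147, 154 and 169 in the 6, 24 and 72 h lists, below its value in solvent, so a weak opened region can be a small difference. The mammary epithelial identity was checked at marker promoters: 9 of 9 epithelial genes, among them EPCAM, CDH1 and KRT5, had a promoter peak in every list, with a summed AUC of 24561 in solvent and 37487 to 43045 under TGFβ1. Of 3 luminal hormone receptor markers, 2 had a peak in solvent and at 6 and 24 h and 1 at 72 h, PGR having none in any list. Peaks were listed for 3 of 5 fibroblast markers in each list (summed AUC 5794 in solvent, 9666 to 10853 under TGFβ1), with none at DCN and LUM. Of 4 endothelial markers only PECAM1 had a peak, and of 4 leukocyte markers none had a peak in solvent and only PTPRC under TGFβ1. These marker levels are deposited AUCs, and their part in the results below was not tested.

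Regions on which the results turn are shown first, each as its summit with 100 bases on either side, plus strand of GRCh38, 5′ to 3′. The summit is that of the strongest peak in the region. Regions are named by the distance of that summit from the TSS of the member's canonical transcript, positive values lying downstream. The EGFR +173.8 kb region was the strongest to open at EGFR, and the EGFR -22.8 kb region rose most at 72 h among its established sites. The AREG -18.9 kb and HBEGF +8.1 kb regions had the largest increases in their windows at 24 h, and the AREG +11.0 kb and HBEGF -1.8 kb regions the largest decreases at that time. Capitals mark matches to the AP-1 motif TGAGTCA and to the E-box CAGGTG on either strand. AP-1 is the FOS and JUN family of factors, and the E-box is bound by SNAIL and ZEB factors among others.
EGFR +173.8 kb, chr7:55192752-55192952: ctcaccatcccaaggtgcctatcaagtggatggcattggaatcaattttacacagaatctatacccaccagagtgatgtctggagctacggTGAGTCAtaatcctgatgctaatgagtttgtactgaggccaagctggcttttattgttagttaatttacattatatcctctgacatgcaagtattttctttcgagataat
EGFR -22.8 kb, chr7:54996073-54996273: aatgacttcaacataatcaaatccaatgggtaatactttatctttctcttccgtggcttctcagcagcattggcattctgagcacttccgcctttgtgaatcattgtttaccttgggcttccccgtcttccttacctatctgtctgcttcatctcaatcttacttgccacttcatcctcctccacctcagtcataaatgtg
AREG -18.9 kb, chr4:74426126-74426326: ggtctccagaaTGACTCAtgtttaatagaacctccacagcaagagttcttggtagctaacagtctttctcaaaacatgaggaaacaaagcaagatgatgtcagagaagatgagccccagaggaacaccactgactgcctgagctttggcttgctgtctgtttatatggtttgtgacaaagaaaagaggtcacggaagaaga
AREG +11.0 kb, chr4:74456064-74456264: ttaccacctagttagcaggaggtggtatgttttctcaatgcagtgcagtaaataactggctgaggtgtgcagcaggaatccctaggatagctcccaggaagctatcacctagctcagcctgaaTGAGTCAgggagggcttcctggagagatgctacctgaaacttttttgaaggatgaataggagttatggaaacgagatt
HBEGF +8.1 kb, chr5:140338448-140338648: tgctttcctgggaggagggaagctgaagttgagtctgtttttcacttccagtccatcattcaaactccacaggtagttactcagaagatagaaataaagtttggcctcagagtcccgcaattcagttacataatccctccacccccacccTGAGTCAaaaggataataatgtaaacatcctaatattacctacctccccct
HBEGF -1.8 kb, chr5:140348311-140348511: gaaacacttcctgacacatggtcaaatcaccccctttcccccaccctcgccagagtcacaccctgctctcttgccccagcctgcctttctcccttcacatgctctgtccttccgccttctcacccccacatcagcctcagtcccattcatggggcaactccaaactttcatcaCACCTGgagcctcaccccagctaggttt

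The AP-1 letters were present in 4 of these 6 windows, those of the EGFR +173.8 kb, AREG -18.9 kb, HBEGF +8.1 kb and AREG +11.0 kb regions. The first opened, the next 2 rose at all times and the last was lower at 6 and 24 h. The 6 windows were picked by their values, and AP-1 letters were found in 27.5% of all member regions, against 32.3% of all regions. The E-box letters were present in the HBEGF -1.8 kb window, in the orientation CACCTG. In the EGFR +173.8 kb window the motif began at the second base of intron 22, where the letters GTGAGT are also the common start of human introns, so this match overlaps a 5′ splice site. The EGFR -22.8 kb window held none of the motifs searched, and that says only that these letters were not in this window.

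To see how far the chromatin of the whole group moved, region calls were counted and set beside the same counts over all regions. At 6 h, 10 of 121 member regions with a peak in both lists were higher (8.26%, 95% Wilson interval 4.55 to 14.5), against 11.7% of all regions. At 24 h, 16 of 118 were higher (13.6%, 8.52 to 20.9), against 20.3% of all regions. At 72 h, 17 of 115 were higher (14.8%, 9.44 to 22.4), against 22.9%. The share of higher regions was thus below the background share at each time, but at 6 and 24 h the background lay inside the interval and at 72 h just outside. The intervals cover counting error only and treat neighbouring regions as independent.

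Lower regions were few. They numbered 2 at 6 h (1.65%), 5 at 24 h (4.24%) and 3 at 72 h (2.61%), against 1.40%, 3.22% and 3.90% of all regions, and each background share lay inside its interval. Opened regions numbered 23 of 144 at 6 h (16.0%, 10.9 to 22.8), 30 of 151 at 24 h (19.9%, 14.3 to 26.9) and 31 of 152 at 72 h (20.4%, 14.8 to 27.5). Over all regions 22.9%, 29.8% and 29.3% opened, each above the upper bound for the members. Closed regions numbered 0, 3 and 6 (0.00%, 1.99% and 3.95%), against 0.551%, 1.31% and 2.43%, all within the intervals. The balance of opened and closed regions depended on the list lengths. With every list cut to the length of the solvent list, 10 of 131, 7 of 128 and 12 of 133 member regions opened and 7, 14 and 18 closed, so that closed regions outnumbered opened ones at 24 and 72 h. The share over all regions was not counted under this cut, so these counts do not set the members apart. Of the 160 regions, 115 had a peak in all 4 lists (71.9%, against 62.6% of all regions) and 17 in all TGFβ1 lists but not in solvent (10.6%, against 14.3%).

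**Figure D1:**
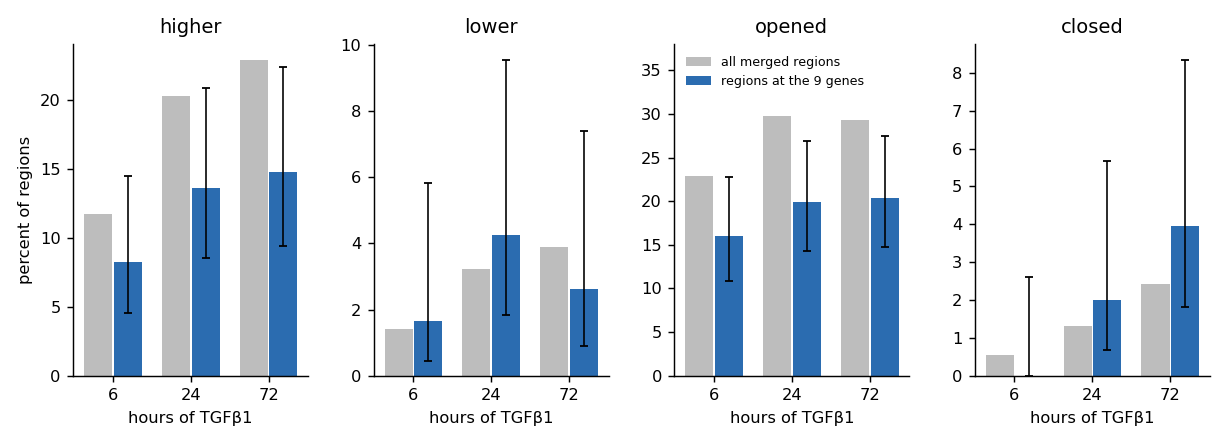
Percent of regions called higher, lower, opened or closed against solvent after 6, 24 and 72 h of TGFβ1, for regions at the 9 genes (blue, with 95% Wilson intervals for counting error) and for all merged regions (grey); each panel has its own axis from 0. The blue bars lie below the grey ones for higher and opened regions at all times.

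Members held more TSS-proximal regions than the genome as a whole (43.8% against 34.4%), so both classes were counted apart at 72 h. Among distal member regions 14 of 64 were higher (21.9%, 13.5 to 33.4, against 29.3% of all distal regions) and 19 of 87 opened (21.8%, 14.5 to 31.6, against 35.4%). Among proximal ones 3 of 51 were higher (5.88%, 2.02 to 15.9, against 13.4%) and 12 of 65 opened (18.5%, 10.9 to 29.6, against 17.8%). Of these 4 shares, only that of distal opened regions had its background outside the interval.

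Higher calls were more frequent at weak sites, at the members as elsewhere. A split of the regions by their solvent AUC, chosen after the data had been seen, gave 10 of 32, 12 of 29 and 12 of 26 higher regions at 6, 24 and 72 h among those with a solvent AUC under 400 (31.2%, 41.4% and 46.2%), close to the 28.3%, 44.6% and 46.9% of all such regions. Among the 89 member regions with a solvent AUC of 400 or more, 0 were higher at 6 h (0.00%, 0.00 to 4.14, against 6.17% of all such regions). At 24 h 4 were higher (4.49%, 1.76 to 11.0, against 12.5%), and at 72 h 5 (5.62%, 2.42 to 12.5, against 15.6%). The established sites of this group were thus called higher in smaller shares than established sites elsewhere, with the background above the upper bound at all 3 times. TSS-proximal and distal regions were not separated in this split. Members held more TSS-proximal regions, which were called higher less often, and the part of this in the difference was not tested. Among them 1, 2 and 3 regions were lower (1.12%, 2.25% and 3.37%), against 1.16%, 3.41% and 4.36%. Opened regions that reached an AUC of 400 numbered 7, 10 and 13 (4.86%, 6.62% and 8.55%), against 5.67%, 11.7% and 12.5% of all regions.

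Summed over its window, no member changed by 1.5-fold at any time. The reference was the same sum for 16301 protein-coding genes with at least 5 regions, of which 2.95%, 8.34% and 9.78% were higher by 1.5-fold at 6, 24 and 72 h and 0.00%, 0.0123% and 0.0920% lower. The median gene had a log2 ratio of 0.05, 0.09 and 0.11. Without scaling this median was 0.49, 0.47 and 0.35, and scaled on all shared regions it was -0.01, -0.03 and -0.04, so that ratios near 0 carry no direction of their own.

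EGFR itself had the largest number of regions, 30 in a window of 293 kb, and EGFR was the nearest protein-coding gene of all of them. Its scaled sum was 43722 in solvent and 45179, 47384 and 49666 after 6, 24 and 72 h, log2 ratios of 0.05, 0.12 and 0.18. These ratios lay at the 48.4th, 54.1st and 61.8th percentile of all genes, close to the middle. The covered length grew from 17114 bp in solvent to 20879, 21200 and 21390 bp, while the scaled AUC per base went from 2.55 to 2.16, 2.24 and 2.32. Between solvent and 6 h the length thus rose and this AUC per base fell, while from 6 to 72 h both rose. With the AUC per base scaled by its own median ratio, the log2 ratio of the window was -0.10, -0.07 and -0.07, close to solvent and level from 24 to 72 h.

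Against this steady sum, individual EGFR sites moved in both directions. The promoter region (chr7:55018629-55021365), the strongest of the window in solvent, had an AUC of 7172 in solvent and 8466, 7848 and 6903 after 6, 24 and 72 h. Scaled, it stood at 0.869, 0.841 and 0.811 times solvent, within the 1.5-fold limit, and 9.70% of all shared regions were as low or lower at 72 h. The other strong element, at +114.1 kb in intron 1 and chosen after its values were seen, had an AUC of 6940, 9214, 9349 and 9160, a log2 ratio of -0.03, 0.05 and 0.15.

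Upstream of EGFR, 2 intergenic elements were called higher at 72 h on the summed AUC, and each call was lost under an alternative. The -22.8 kb region (chr7:54995527-54996484) had an AUC of 1263 in solvent and 2380, 2296 and 2500 after 6, 24 and 72 h. Its folds were 1.39, 1.40 and 1.67, and 17.2% of all shared regions rose as far at 72 h. Per base of peak its log2 ratio at 72 h was 0.39 rather than 0.74, inside the limit, the peak having widened from 697 to 929 bp. The -33.4 kb region, chosen after its values were seen, had an AUC of 1421, 2496, 2546 and 2665 and a fold of 1.58 at 72 h, with a log2 ratio of 0.64 per base. Scaled on all shared regions its log2 ratio was 0.52, inside the limit. Both elements stood above the solvent level in all 3 TGFβ1 lists.

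The largest opened region at EGFR lay at +173.8 kb (chr7:55192447-55193298). It had no solvent peak and an AUC of 1550, 1381 and 1325 in the TGFβ1 lists, which scaled to 1141, 1062 and 1116. It was thus present in full by 6 h and kept its level. Its summit lay 11 bp past the end of exon 22 of 28, within the part of the gene that encodes the kinase domain. The region spans that exon and the annotated start of 1 shorter EGFR transcript, which is why it counts as TSS-proximal.

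A different time course was seen at +33.2 kb in intron 1 (chr7:55052143-55052453), where no solvent peak was listed and the AUC was 407, 706 and 959. The region at +89.1 kb, also in intron 1, had no solvent peak and an AUC of 389, 387 and 674. Another region with a peak in all TGFβ1 lists and none in solvent lay at +226.6 kb in an intron of the lncRNA gene ELDR, with an AUC of 324, 431 and 401. These 3 were weaker than the +173.8 kb region in every list, and they were chosen after their values were seen.

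Weak solvent peaks that grew were found at +44.9 kb in intron 1, with an AUC of 255, 477, 589 and 649 and a fold of 2.14 at 72 h, and at +231.4 kb in ELDR, with 245, 605, 673 and 646 and a fold of 2.23. Per base the log2 ratio at 72 h was 0.42 at the former, inside the limit, and 0.91 at the latter. Both were chosen after their values were seen. The single lower region was at +80.7 kb in intron 1 (chr7:55099408-55099861), with an AUC of 591, 666, 733 and 450. Its fold was 0.829, 0.952 and 0.642, so it was close to solvent at 24 h and low at 72 h only, where 3.31% of all shared regions were as low. Its log2 ratio at 72 h was -0.64, against -0.39 without scaling and -0.50 per base, both inside the limit. No EGFR region closed, of 27, 28 and 29 counted at 6, 24 and 72 h, where 0.551%, 1.31% and 2.43% of all regions did. Over the window, 1, 2 and 4 of 23 shared regions were higher at 6, 24 and 72 h (4.35%, 8.70% and 17.4%), with intervals of 0.772 to 21.0, 2.42 to 26.8 and 6.98 to 37.1. Opened regions were 4 of 27, 5 of 28 and 6 of 29 (14.8%, 17.9% and 20.7%), with intervals of 5.92 to 32.5, 7.88 to 35.6 and 9.85 to 38.4. Each of these 6 intervals holds the share over all regions given above.

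**Figure D2:**
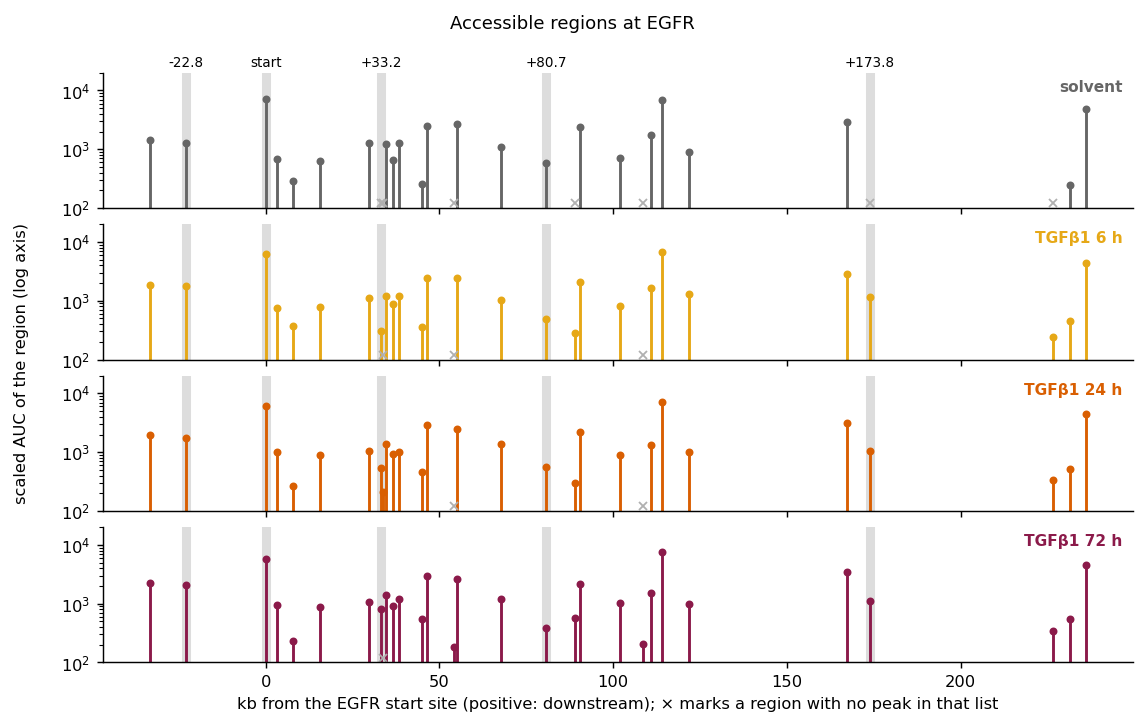
Scaled AUC (log axis) of the 30 regions at EGFR in each of the 4 lists against distance from the EGFR TSS in kb; each stem is a region, a cross marks a region without a peak in that list, and grey bands mark regions described in the text. The +173.8 kb region is a cross in solvent and stands between 1062 and 1141 in the 3 TGFβ1 lists, while the promoter stem stays between 5817 and 7172.

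ERBB2 (HER2), the family member without a known soluble ligand, lay in a gene-dense window that holds the TSSs of 8 protein-coding genes, ERBB2 included, and only 4 of its 14 regions had ERBB2 as the nearest gene. Its scaled sum was 24997 in solvent and 23834, 23363 and 23075 after 6, 24 and 72 h, log2 ratios of -0.07, -0.10 and -0.12. Unscaled, the ratios were 0.37, 0.28 and 0.13, so the sign depends on the scaling. Relative to other genes ERBB2 ranked low, at the 13.0th, 11.1st and 8.12th percentile. However, 10 of its 14 regions were TSS-proximal, the class on which the scale was set. Over all distal regions the median log2 ratio was 0.12, 0.23 and 0.27. The part of this mix in the rank was not tested. Over the 4 regions nearest to ERBB2 alone, the log2 ratio was -0.01, -0.00 and -0.20, close to solvent at 6 and 24 h. Covered length was 9664 bp in solvent and 10192 to 10814 bp under TGFβ1, and the scaled AUC per base 2.59 and 2.16 to 2.27.

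At the ERBB2 promoter (chr17:39699639-39700547) the AUC was 1866, 2714, 2577 and 2272, a fold of 1.07, 1.06 and 1.03. This was also the established site with the highest ratio in the window. The lowest was 50.6 kb downstream beside GRB7 (chr17:39750066-39750858), with an AUC of 1121, 1397, 1243 and 918 and a fold of 0.690 at 72 h, short of the limit. A region over exon 8 of PGAP3 at -27.7 kb was the only one with a peak in all TGFβ1 lists and none in solvent, with an AUC of 370, 508 and 434. Within ERBB2, a weak region at +17.0 kb in intron 14 of the canonical transcript had an AUC of 218, 279 and 232 and no peak at 72 h. No ERBB2 region was called higher or lower, of 10, 10 and 9 shared regions at 6, 24 and 72 h. The upper bounds of 27.8%, 27.8% and 29.9% are above the 11.7%, 20.3% and 22.9% of all regions called higher. They are also above the 1.40%, 3.22% and 3.90% called lower, so this count is too small to set ERBB2 apart.

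ERBB3, which has little kinase activity of its own and pairs with ERBB2, lay in a window that holds the TSSs of 9 protein-coding genes, ERBB3 included, with 4 of its 20 regions nearest to ERBB3. Its scaled sum was 32481 in solvent and 30428, 30499 and 31853 under TGFβ1, log2 ratios of -0.09, -0.09 and -0.03, against 0.35, 0.29 and 0.22 unscaled. The scaled ratios lay at the 7.73rd, 12.3rd and 22.6th percentile of all genes, and 16 of the 20 regions were TSS-proximal. Covered length was 10799 bp in solvent and 12162 to 13139 bp under TGFβ1, and the scaled AUC per base 3.01 and 2.32 to 2.50. The promoter (chr12:56078801-56081068) had an AUC of 4809, 6347, 6012 and 5721, a fold of 0.972, 0.961 and 1.00. It was thus level with solvent throughout.

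Opened regions were found upstream of ERBB3. At -8.3 kb (chr12:56071630-56072021) no peak was listed in solvent or at 6 h, and the AUC was 649 at 24 h and 692 at 72 h. At -25.0 kb the AUC was 325, 424 and 570 with no solvent peak, and at -18.0 kb a peak of 306 was listed at 72 h alone. The -8.3 kb and -18.0 kb regions were chosen after their values were seen. These 3 opened regions were distal, and a weak one at +63.3 kb within ESYT1, also chosen after its values were seen, was TSS-proximal. The single region called higher at 72 h, at +35.4 kb beside RPL41 and chosen after its values were seen, was weak, with an AUC of 213 in solvent and 433 at 72 h. Its log2 ratio at 72 h was 0.78, but 0.19 per base, inside the limit. It was 1 of 16 shared regions (6.25%, 1.11 to 28.3), against 22.9% of all regions. Among established sites the highest at 72 h was at +30.6 kb within PA2G4, with a fold of 1.53 at 24 h (log2 0.43 per base, inside the limit) and 1.17 at 72 h, and the lowest was at +39.4 kb beside ZC3H10, with a fold of 0.784 at 72 h.

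At AREG (amphiregulin), 5 of 16 shared regions were higher at both 24 and 72 h (31.2%, 14.2 to 55.6), an interval that holds the 20.3% and 22.9% of all regions. Its window held 21 regions, 16 of them distal, and its scaled sum was 18234 in solvent and 19214, 18086 and 21508 after 6, 24 and 72 h. The log2 ratios were 0.08, -0.01 and 0.24, the 56.7th, 27.6th and 69.0th percentile of all genes. Covered length was 8937, 10525, 9491 and 10491 bp and the scaled AUC per base 2.04, 1.83, 1.91 and 2.05. The flat sum at 24 h joined increases at several weak sites with a decrease at the site that was strongest in solvent.

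That site lay at +11.0 kb, just past the 3′ end of AREG (chr4:74455752-74457772), and had an AUC of 4427 in solvent and 3423, 2378 and 3894 after 6, 24 and 72 h. The fold was 0.569, 0.413 and 0.741. The site was therefore lowest at 24 h and had come back most of the way at 72 h, when it was inside the limit. At 6 and 24 h only 0.492% and 0.408% of all shared regions were as low. Without scaling its log2 ratio was -0.37, -0.90 and -0.19, past the limit at 24 h alone. Its covered length was 2021 bp in solvent and 1992, 1426 and 1989 bp under TGFβ1, and per base the log2 ratio was -0.65, -0.65 and -0.34.

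The AREG -18.9 kb region (chr4:74426069-74426553), in an intron of an unnamed lncRNA gene (ENSG00000250532), went the other way at the same times. Its AUC was 272 in solvent and 985, 1361 and 989 after 6, 24 and 72 h, a fold of 2.67, 3.85 and 3.07. This increase held per base, at log2 1.26, 1.64 and 1.49, and 2.96% of all shared regions rose as far at 72 h. The nearby -21.7 kb region had an AUC of 256, 724, 578 and 621 and a fold of 2.04 at 72 h.

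Downstream of AREG the +29.6 kb region had an AUC of 273, 678, 1024 and 995, a fold of 1.83, 2.88 and 3.07. Most of this was width, the peak covering 178 bp in solvent and 464 to 485 bp under TGFβ1, and per base the log2 ratio was -0.37, 0.20 and 0.29. The +58.7 kb region had an AUC of 327, 762, 905 and 1014 and a fold of 2.61 at 72 h, which held per base at log2 1.18. The largest opened region, at +56.6 kb (chr4:74501581-74501855), had no solvent peak and an AUC of 411, 626 and 820. Both of these far downstream sites were higher in each later list than in the one before. A small region over exon 2 of AREG had an AUC of 308, 545, 782 and 597. Apart from the +56.6 kb region, these sites and that at -18.9 kb were below the AUC limit for established sites and were chosen after their values were seen.

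The AREG promoter (chr4:74444743-74445646) had an AUC of 2892, 3772, 3564 and 3275, a fold of 0.960, 0.947 and 0.954. It was level with solvent while sites on both sides of it changed. The established site with the highest ratio at 72 h, at +28.2 kb, had a fold of 1.34. A weak region at +30.1 kb, with an AUC of 212 in solvent and 244 at 6 h, had no peak at 24 or 72 h.

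EREG (epiregulin) lies upstream of AREG, in the same orientation. Its 18 regions summed to 15400 in solvent and 16970, 15811 and 17444 under TGFβ1, log2 ratios of 0.14, 0.04 and 0.18, with covered lengths of 6722, 8398, 7830 and 8155 bp and a scaled AUC per base of 2.29, 2.02, 2.02 and 2.14. Only 8 of the regions had EREG as the nearest gene. The EREG promoter (chr4:74364694-74365548) had an AUC of 1334, 1758, 1314 and 1227, a fold of 0.970, 0.757 and 0.775, and was the lowest established site of the window at 72 h. It was inside the 1.5-fold limit, but 7.62% of all shared regions were as low at 72 h.

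Within EREG intron 1, 2 weak regions were lower at 24 h alone, of 15 shared regions in the window (13.3%, 3.74 to 37.9, against 3.22% of all regions). The +10.8 kb region had an AUC of 384, 479, 299 and 339, and the +11.9 kb region 239, 270, 207 and 317. Without scaling their log2 ratios at 24 h were -0.36 and -0.21, both inside the limit. Far upstream, on the side of EPGN, another ligand gene of the family, the -47.1 kb region had an AUC of 232, 664, 599 and 383 and the -45.4 kb region 279, 617, 563 and 797. The former was higher at 6 and 24 h and the latter at all times, although per base the -45.4 kb region had a log2 ratio of -0.54, -0.10 and 0.35. These 4 regions were chosen after their values were seen. At 72 h, 3 of 15 shared regions of the window were higher (20.0%, 7.05 to 45.2, against 22.9% of all regions). Opened regions were 2 of 17 (11.8%, 3.29 to 34.3, against 29.3%). Of these, 2 of the 3 higher and both opened regions also lay in the AREG window. The opened region present in all TGFβ1 lists, at +50.7 kb, was weak, with an AUC of 380, 237 and 218. The highest established site at 72 h, at +63.4 kb, was shared as well and had a fold of 1.14, 1.07 and 1.27.

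**Figure D3:**
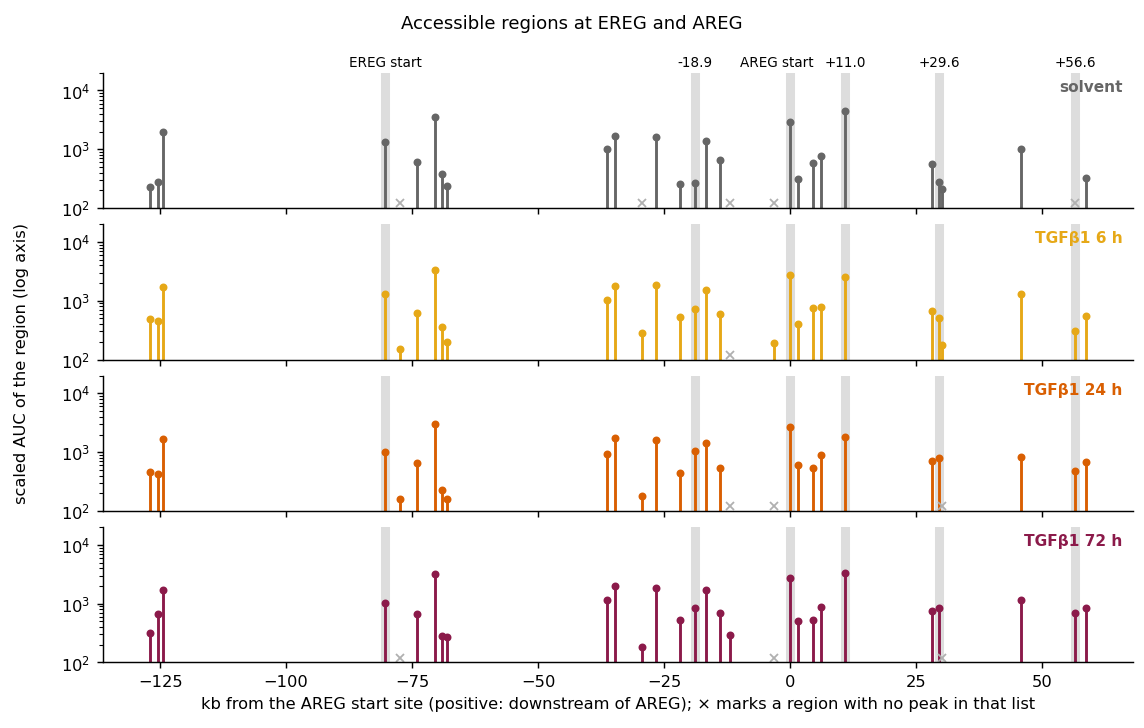
Scaled AUC (log axis) of the regions at EREG and AREG in each of the 4 lists against distance from the AREG TSS in kb; each stem is a region, a cross marks a region without a peak in that list, and grey bands mark regions described in the text. The +11.0 kb stem falls from 4427 in solvent to 1827 at 24 h and stands at 3282 at 72 h, while the -18.9 kb stem is between 726 and 1046 under TGFβ1 against 272 in solvent.

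HBEGF (heparin-binding EGF-like growth factor) held the strongest promoter of the 9 genes and the largest increase in summed AUC at a single shared region. Its 21 regions summed to 25190 in solvent and to 25760, 26095 and 25940 under TGFβ1, log2 ratios of 0.03, 0.05 and 0.04, so the sum was flat. Covered length was 9874, 11612, 11466 and 11240 bp and the scaled AUC per base 2.55, 2.22, 2.28 and 2.31. The window also holds the TSSs of PFDN1 and SLC4A9, and 8 of the regions had HBEGF as the nearest gene.

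The region at +8.1 kb in intron 3 (chr5:140338304-140339210) was chosen after its values were seen. It had an AUC of 224 in solvent, just above the listing limit, and 1610, 1878 and 1224 under TGFβ1. The fold was 5.29, 6.44 and 4.60, the largest of any shared region at the 9 genes at each time on the summed AUC. At 72 h 0.669% of all shared regions rose as far. The peak widened from 341 bp to 861 to 888 bp, and per base the log2 ratio was 1.18, 1.43 and 0.94, below that of the AREG -18.9 kb region at each time. It stood highest at 24 h and lowest, among the TGFβ1 lists, at 72 h.

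The HBEGF promoter region (chr5:140344542-140347746), which reaches from upstream of the TSS into intron 2, had an AUC of 10354, 12307, 11001 and 9828. Its fold was 0.875, 0.817 and 0.800, inside the limit, and per base its log2 ratio was -0.02, 0.02 and -0.04. Immediately upstream, the -1.8 kb region (chr5:140347994-140348914) had an AUC of 2585, 2877, 2098 and 1580, a fold of 0.819, 0.624 and 0.515. Each later TGFβ1 list was below the one before, and 1.37% of all shared regions were as low at 72 h. Without scaling the log2 ratio was -0.30 at 24 h, inside the limit, and -0.71 at 72 h. The peak covered 908 bp in solvent and 567 bp at 72 h, and per base the log2 ratio was -0.15, -0.00 and -0.21, so that the decrease was mostly one of width. The neighbouring -2.9 kb region, chosen after its values were seen, had an AUC of 752, 1111, 941 and 583 and a fold of 0.654 at 72 h. Its peak narrowed from 370 to 278 bp, and per base the log2 ratio at 72 h was -0.13, inside the limit.

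Downstream of HBEGF, on the PFDN1 side, increases were found at established sites. The +51.0 kb region in intron 2 of PFDN1 (chr5:140295385-140295766) had an AUC of 752, 1261, 1712 and 1744, a fold of 1.23, 1.75 and 1.95, with log2 0.78 per base at 72 h. The +28.5 kb region had an AUC of 589, 1091, 1343 and 1153 and a fold of 1.65 at 72 h. On the same side, regions at +23.6 kb and +48.1 kb had no peak in solvent or at 6 h and an AUC of 335 and 298 at 24 h and of 653 and 531 at 72 h. The only region open in all TGFβ1 lists and not in solvent was weak, at -12.5 kb, with an AUC of 238, 300 and 284. A region at -18.8 kb within SLC4A9 had no peak in solvent or at 6 h and an AUC of 545 and 704 later. A weak region at -44.9 kb, with an AUC of 225 in solvent and 200 at 6 h, was lower at 6 h and had no peak afterwards. Its log2 ratio at 6 h was -0.61, against -0.17 without scaling and -0.37 per base, both inside the limit. All regions of this paragraph but those at +51.0, -12.5 and -44.9 kb were chosen after their values were seen.

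**Figure D4:**
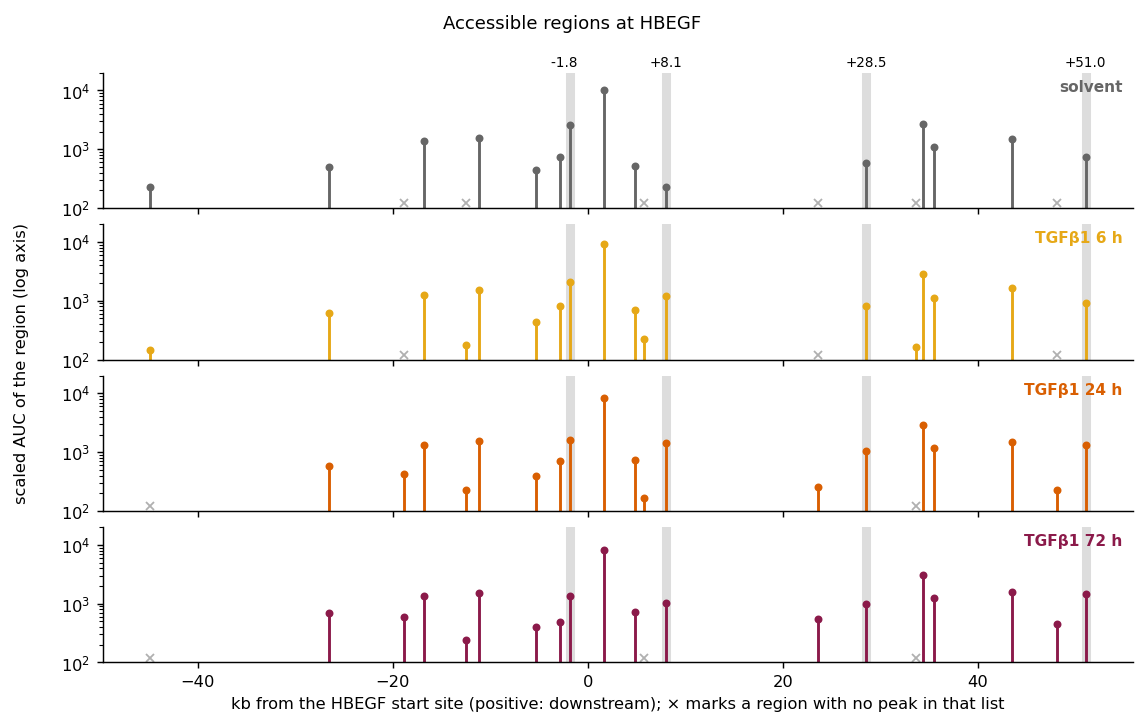
Scaled AUC (log axis) of the 21 regions at HBEGF in each of the 4 lists against distance from the HBEGF TSS in kb; each stem is a region, a cross marks a region without a peak in that list, and grey bands mark regions described in the text. The +8.1 kb stem rises from 224 to between 1031 and 1443, while the -1.8 kb stem goes from 2585 to 1332 at 72 h.

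At TGFA (transforming growth factor alpha), 0 of 10, 10 and 8 shared regions were called higher at 6, 24 and 72 h. The upper bounds of 27.8%, 27.8% and 32.4% are above the 11.7%, 20.3% and 22.9% of all regions, so this count is too small to set TGFA apart. Its 14 regions all had TGFA as the nearest gene and summed to 18441 in solvent and 18055, 18786 and 19080 under TGFβ1, log2 ratios of -0.03, 0.03 and 0.05. Covered length was 6748, 7706, 8071 and 7226 bp and the scaled AUC per base 2.73, 2.34, 2.33 and 2.64. The promoter (chr2:70552479-70554613) had an AUC of 6761, 8609, 7903 and 7309, a fold of 0.938, 0.898 and 0.911. The established site with the highest ratio, at -16.0 kb, had a fold of 1.29 at 72 h.

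Weak sites opened and closed around TGFA, with 4 of 14 regions opened at 72 h (28.6%, against 29.3% of all regions). The strongest opened region, at +37.0 kb in intron 1 (chr2:70516679-70517061), had an AUC of 411, 510 and 453. Opened regions at +44.9, +44.6 and +7.2 kb reached no more than 350 in any list and were chosen after their values were seen. A region at +127.7 kb, beyond the 3′ end, had an AUC of 348, 358 and 287 and no peak at 72 h. At +39.0 kb in intron 2, a region chosen after its values were seen, the AUC was 280, 332 and 317, also with no peak at 72 h. The former was also lower at 24 h, with a fold of 0.633. Its log2 ratio was -0.66, against -0.28 without scaling and -0.55 per base, both inside the limit.

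BTC (betacellulin) had the fewest regions, 6, and the largest ratio of the 9 sums at 6 h. Its sum was 4887 in solvent and 5834, 5524 and 5247 under TGFβ1, log2 ratios of 0.26, 0.18 and 0.10, the 85.4th, 64.0th and 49.4th percentile. The ratio was thus largest at 6 h and close to the median gene at 72 h. Covered length was 2164, 2923, 2918 and 2696 bp, and the scaled AUC per base 2.26, 2.00, 1.89 and 1.95. With the AUC per base scaled by its own median ratio, the log2 ratio of the window was -0.03, -0.13 and -0.14. The sum thus rose with covered length and not with the AUC per base.

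The BTC promoter (chr4:74793676-74794840) had an AUC of 3182, 4366, 3967 and 3718, a fold of 1.01, 0.958 and 0.985. The +25.4 kb region in intron 2 had an AUC of 839, 1459, 1374 and 1026, a fold of 1.28, 1.26 and 1.03, and the +55.6 kb region 604, 1086, 739 and 659. On the summed AUC both were highest at 6 h and inside the limit. At +55.6 kb the ratio depended on the measure, with log2 0.40, -0.09 and -0.12 on the sum and -0.34, -0.76 and -0.85 per base. Per base this region was thus below solvent by more than 1.5-fold at 24 and 72 h. The only higher region lay at -44.4 kb, with an AUC of 261, 504, 569 and 534 and a fold of 1.72 at 72 h (log2 0.50 per base, inside the limit), and the only one open in all TGFβ1 lists and not in solvent at -11.3 kb, with an AUC of 242, 287 and 289. The -44.4 kb region was chosen after its values were seen.

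ERRFI1, the inhibitor, is an immediate early gene of EGFR signalling. Its 25 regions summed to 27451 in solvent and 29009, 27145 and 28390 under TGFβ1, log2 ratios of 0.08, -0.02 and 0.05, with covered lengths of 10769, 13430, 12519 and 11133 bp and a scaled AUC per base of 2.55, 2.16, 2.17 and 2.55. The strongest region, chosen after its values were seen, lay at +21.4 kb over the 3′ end of the gene (chr1:8004087-8007258) and had an AUC of 8209, 10785, 9284 and 8133. The promoter (chr1:8025481-8026944) had an AUC of 3710, 4738, 4086 and 3719, a fold of 0.940, 0.847 and 0.845. Both were inside the limit at all times.

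The established site with the highest ratio at 72 h at ERRFI1 was at -49.4 kb, in an intron of the divergent lncRNA gene ERRFI1-DT. Its AUC was 724 in solvent and 902, 1494 and 1563 after 6, 24 and 72 h, a fold of 0.917, 1.59 and 1.82. It was at the solvent level at 6 h and higher afterwards, and per base the log2 ratio was -0.04, 0.65 and 0.78. The -21.0 kb region, chosen after its values were seen, had an AUC of 265, 646, 643 and 506 and a fold of 1.61 at 72 h. Scaled on all shared regions, the log2 ratio was 0.54 both at -49.4 kb at 24 h and at -21.0 kb at 72 h, inside the limit. At +43.9 kb, within PARK7, a region without a solvent peak had an AUC of 431, 434 and 433. At +10.3 kb in intron 1 the AUC was 305 and 384 in solvent and at 6 h, with no peak later, and the lowest established site, at +72.0 kb beside PARK7, had a fold of 0.789 at 72 h but a log2 ratio of 0.19 per base.

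All of the 9 promoters had a peak in every list and none was higher or lower at any time. Their folds at 72 h ran from 0.775 at EREG to 1.03 at ERBB2. Of all TSS-proximal regions 13.4% were higher and 3.75% lower at 72 h, so a count over 9 regions is too small to set these promoters apart. Scaled, 7 of the 9 were below solvent at 72 h, but the scale was itself set on TSS-proximal regions, whose median is 0 by construction, and unscaled only EGFR, EREG and HBEGF were below.

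The other genes of the pathway were described by the same window sums. Of 40 genes listed, 39 had enough regions, NRAS not being among them, and 2, 3 and 4 were higher by 1.5-fold at 6, 24 and 72 h with none lower, beside the background shares given above. These counts are on the scaled sums and were not repeated under the other scalings. The median log2 ratio was 0.03, 0.04 and 0.05. All those called were ligands or the receptor ERBB4. NRG3, a neuregulin ligand of ERBB4, had a log2 ratio of 0.64, 1.23 and 1.47. ERBB4 had 0.67, 0.82 and 1.14, from a solvent sum of 2306, the lowest of the listed genes. EGF had 0.56, 0.92 and 0.86, and NRG1, a ligand of ERBB3 and ERBB4, 0.28, 0.50 and 0.65. NRG2 (-0.06 at 72 h), NRG4 (0.20) and EPGN (-0.05) were within the limit.

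The sheddases ADAM10 and ADAM17, which release the ligands, had log2 ratios from -0.09 to 0.08. The 13 measured adaptors and members of the RAS-ERK chain lay between -0.16 and 0.23 at all times, and the 6 receptor down-modulators, CBL and LRIG1 among them, between -0.10 and 0.36. The 11 immediate early and ERK target genes were the widest group among those without a call. FOS had -0.09, -0.40 and -0.53, MYC -0.30, -0.42 and -0.32 and EGR1 -0.19, -0.29 and -0.34, whereas IER3 had 0.14, 0.26 and 0.48. None reached 1.5-fold on the scaled sums. Unscaled, every ratio is larger by 0.44, 0.38 and 0.25 at the 3 times, which turns MYC, EGR1 and FOS positive at 6 h and EGR1 positive at 24 h. It also puts IER3 past 1.5-fold at 24 and 72 h and ETV4 at 24 h, so that the absence of a call in this group depends on the scaling.

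The 3 genes whose window ratios were most like those of EGFR over the 4 lists were TSPAN10, PPP2R2A and TMEM218, at a Euclidean distance of 0.004, 0.005 and 0.006 on the log2 scale among 16300 genes. With ratios this close to the median gene, many genes lie at small distances.

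Finally, the letters of 5 motifs were looked for, on either strand, within 100 bases of the summit of each region. AP-1 (TGAGTCA) was found in 44 of 160 member regions (27.5%, 21.2 to 34.9), against 32.3% of all regions, and in 24 of 90 distal ones (26.7%, 18.6 to 36.6), against 37.5%. The TEAD letters GGAATG were found in 32 (20.0%, against 15.9%), the E-box CAGGTG in 28 (17.5%, against 17.9%), and the ETS letters CCGGAAGT in 2 (1.25%, against 0.868%). The SMAD letters GTCTAGAC and GTCCAGAC were found in 0 of 160 (0.00%, 0.00 to 2.34), against 0.942%, which is inside the interval.

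Among the 33 distal member regions that were higher or opened at 72 h, 11 held AP-1 (33.3%, 19.8 to 50.4), 11 TEAD (33.3%, 19.8 to 50.4) and 3 the E-box (9.09%, 3.14 to 23.6). Over all such regions the shares were 43.1%, 19.5% and 14.0%. Among the 49 distal member regions within 1.5-fold, 12 held AP-1 (24.5%), 7 TEAD (14.3%) and 11 the E-box (22.4%), against 36.3%, 15.8% and 20.8% of all such regions. The TEAD letters were present at the opened ERBB3 -8.3 kb, ERBB3 -25.0 kb and EGFR +33.2 kb regions, and the AP-1 letters at the AREG -21.7 kb and HBEGF +28.5 kb regions. These examples were chosen after their values were seen. TEAD factors are the DNA-binding partners of YAP and TAZ. A match is a description of the letters and not evidence of binding.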

How the data were processed

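ATAC-seq (Omni-ATAC protocol) was done on 8 samples, 2 for each of 4 conditions. Per the labels and the study's methods, the authors trimmed reads (Trimmomatic 0.38), aligned them to GRCh38 (Bowtie2 2.4.5), handled alignments with SAMtools 1.4.1 and Picard, and called peaks with Genrich 0.5 on both replicates together, with blacklisted regions removed. The deposited signal is the AUC of each peak, at least 200 in every list. The score, −log10 p and −log10 q columns were not used. Depth per library is unknown, and the replicates were not analysed apart.

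Peaks sharing at least 1 bp were merged (bedtools 2.31.1; python 3.11.15, numpy 2.4.6, pandas 2.3.3, scipy 1.17.1, pysam 0.24.0, matplotlib 3.10.9), and the AUC was summed per region and list. GENCODE 44 gave genes and TSSs. Each list was scaled by its median log2 ratio to solvent within 3 kb of a TSS. Window sums cover the gene body and 50 kb on each side. With 1 list per condition no test was made, and 95% Wilson intervals cover counting error only. Calculations were tested on simulated data.

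Regions were named by rule: the promoter; the highest and lowest at 72 h among regions with a peak in all 4 lists and a solvent AUC of at least 400; the opened region with the largest AUC at 72 h; and the solvent region with the largest AUC and no peak at 72 h. Others are said to be chosen after their values were seen. The members, gene lists and motifs were chosen with earlier results of these data known. Alternatives were other scalings, AUC per base, windows, overlaps, limits and list lengths. The sequence of 1 region is not reported here.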

Additional observations from a re-analysis of the deposited data

How the results depend on the processing

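The shares of member regions called took 123 values under the alternatives, of which 84 stayed within the interval of the reported share. Values are given for 6, 24 and 72 h. The share of higher regions was 32.2%, 31.4% and 26.1% without scaling, 0.00%, 4.49% and 5.68% with peaks of at least 400 AUC, 3.28%, 6.67% and 5.17% within 10 kb of the genes, and 3.31%, 4.24% and 6.96% at 2-fold. Split after the data were seen, it was 0.00%, 4.49% and 5.62% at a solvent AUC of 400 or more and 31.2%, 41.4% and 46.2% below it. The share of lower regions was 0.00%, 0.847% and 0.870% without scaling, 0.00%, 0.847% and 0.00% at 2-fold, and 10.3% at 24 h and 0.00% at 72 h at a solvent AUC under 400. The opened share was 24.6% at 6 h with peaks of at least 400 AUC, 7.63%, 5.47% and 9.02% with lists cut to equal length, and 4.86%, 6.62% and 8.55% where opened regions had to reach 400 AUC, a limit added after the data were seen. The closed share was 5.34%, 10.9% and 13.5% with lists of equal length, above the opened share at 24 and 72 h, 4.58% at 6 h with 50% overlap, and 0.00% at 24 h and 0.833% at 72 h with peaks of at least 400 AUC. The cause of these moves was not tested, and with lists of equal length no share over all regions was counted. Of 243 alternative window sums, 1 was beyond 1.5-fold of solvent, BTC at 6 h without scaling (log2 0.70). Among regions called higher or lower, the per-base ratio reversed at AREG +29.6 kb at 6 h (-0.37) and at EREG -45.4 kb at 6 h (-0.54) and 24 h (-0.10). Ratios inside the limit changed sign per base as well, among them ERRFI1 +72.0 kb at 72 h (-0.34 to 0.19) and AREG +28.2 kb at 24 h (0.36 to -0.43).

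No paired analysis was possible because the replicates were pooled in the lists and no result comes from a test. For the same reason leaving out a replicate was not run. Peaks under an AUC of 200 are not listed.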
